A study of Homo sapiens with 24 samples.

Results

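MRTF-A (myocardin-related transcription factor A, gene MRTFA) binds monomeric actin. When actin polymerises, it enters the nucleus and joins serum response factor, SRF, at promoters of cytoskeletal genes. It also carries a SAP domain, a DNA-binding motif named after SAF-A/B, Acinus and PIAS. The question taken up here is whether the transcriptional effect of the MRTF-A form that the labels call dSAP depends on how the cells were grown. The effect of dSAP in each culture is the difference between dSAP and control cells, and its culture dependence is the 3D effect minus the 2D effect. The same number is obtained as the shift of the dSAP line between cultures minus the shift of the control line. A gene can differ between cultures because the control line moved, because the dSAP line moved, or both. The levels of the 4 groups are therefore given for the genes described in detail. For genes named with a difference or with effects alone, the text does not separate these cases.

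The comparison used 12 of the 24 RNA-seq libraries of the series, 3 in each of 4 groups. The cells were MDA-MB-231, a line from human breast cancer known for a mesenchymal look and for lacking oestrogen and progesterone receptors. The groups were 3D dSAP MRTF-A OX, 3D Control, 2D dSAP MRTF-A OX and 2D Control. All lines, control included, received doxycycline at 1 µg/ml for 72 h to switch on the inducible construct where there was one. 3D cells lay on matrigel, a gel of basement membrane proteins that was also added to the medium, and 2D cells were on culture plates. The medium contained fetal bovine serum. The remaining libraries came from lines overexpressing wild-type MRTF-A (WT) or a form labelled dSRF, and the WT libraries enter at the end. The labels do not spell out dSAP. They do not say what the control line carries, whether each line is a clone, or whether replicates were separate cultures. P-values therefore measure the spread between these samples, which may be technical.

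The 12 libraries held between 15536654 and 20672058 estimated counts, with a median of 18152103.5. Levels are given as TMM-scaled CPM, each library's counts as a share of its total, which is corrected by TMM (trimmed mean of M-values) factors. The fit covered 14170 genes that passed a filter on low counts. Its overall coefficient of variation between replicates was 6.84%. The genotype field of the labels disagrees with the titles for 16 of the 24 libraries, and groups follow the titles. MRTFA levels went with the titles in all 12 libraries: the gene (chr22:40410281-40636702 in GRCh38) had 10719, 10246 and 10817 CPM in 3D dSAP cells against 30.1, 29.5 and 29.9 CPM in 3D control cells, and 8942, 9865 and 9250.0 CPM in 2D dSAP cells against 35.6, 39.1 and 39.5 CPM in 2D control cells. In dSAP cells MRTFA was 0.18 log2 higher in 3D than in 2D (adjusted p = 0.00327), and in control cells the same shift was -0.35 log2 (adjusted p = 9.21e-05). Its effect was thus 0.53 ± 0.08 (SE; adjusted p = 0.000364) larger in 3D, where the test is edgeR's quasi-likelihood test with Benjamini-Hochberg adjustment over all genes, as for every adjusted p below unless another fit is named. That difference was lost on the deposited TPM values (TPM, scaled for transcript length; limma on log2(TPM + 1), adjusted p = 0.206) and in the fit of all 24 libraries (adjusted p = 0.777). The part of this difference in MRTFA level in the results below was not tested. The deposited values do not separate the construct's transcript from the cell's own MRTFA. MRTFA levels tell overexpressing from control libraries, not dSAP from WT or dSRF. Which form a library carries, and its culture, rest on the titles.

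All 7 genes listed as markers of the line passed the filter, and VIM is shown as 1 of them. VIM averaged 1349 CPM in 3D dSAP cells, 1734 CPM in 3D control cells, 1426 CPM in 2D dSAP cells and 1507 CPM in 2D control cells. The epithelial cadherin CDH1 was near 0 in 3D (0.179 CPM in dSAP and 0.173 CPM in control cells) and low in 2D (1.62 and 1.76 CPM). ESR1 and PGR, the hormone receptor genes, did not pass the filter. Of 6 genes listed as absent or low in the line, 3 passed it, CDH1 among them. Of markers of other cells, 2 of 12 immune, 3 of 10 endothelial and 6 of 10 fibroblast genes passed. Of the fibroblast genes, 4 were higher and 0 lower in dSAP cells in 3D, and 4 higher and 1 lower in 2D. These are bulk samples, so fewer cells of a kind and less RNA per cell cannot be told apart. Transcripts of the mitochondrial genome took 1.29 to 1.32% of counts in 3D dSAP cells and 0.940 to 1.45% in 3D control cells, against 0.549 to 0.686% in 2D dSAP cells and 0.398 to 0.890% in 2D control cells. Their part in the results was not tested.

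dSAP and control cells differed over a large part of the transcriptome in both cultures. For 1400 genes the size or direction of the difference depended on the culture. In 3D, 6463 genes (45.6%) differed between dSAP and control cells at an adjusted p under 0.05, 3102 (21.9%) higher and 3361 (23.7%) lower in dSAP cells. In 2D, 6834 genes (48.2%) differed, 3524 (24.9%) higher and 3310 (23.4%) lower. The 2 sets shared 4556 genes changed in the same direction, 70.5% of the 3D calls and 66.7% of the 2D calls. Across the 14170 genes, the 2D and 3D effects, which share no library, had a Pearson correlation of 0.616. The culture dependence itself was called for 1400 genes (9.88%). The effect was more positive in 3D for 573 of them (4.04% of genes tested) and more negative in 3D for 827 (5.84%). These 2 percentages are the background against which the counts for gene groups below are read.

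Most of the called differences were small. Their median absolute size was 0.389 log2, and 939 of 1400 were under 0.5. At least a 2-fold difference was reached by 134 genes (0.946%). At an unadjusted p under 0.05 there were 3354 genes. The number and direction of calls moved with the processing. On log2(TPM + 1), 274 genes were more positive and 211 more negative, a balance opposite to that from the counts. When all 24 libraries shared one estimate of spread, 170 were more positive and 180 more negative. Leaving out 1 library of that fit, replicate 1 of dSRF in 3D, gave 906 and 832. That library belongs to none of the 4 groups compared. Calls given below as lost in the fit of all 24 libraries include its spread. Of the 12 libraries compared, leaving out replicate 2 of 2D dSAP turned the split to 724 more positive and 533 more negative, and leaving out replicate 2 of 2D control turned it to 672 and 501.

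**Figure D1:**
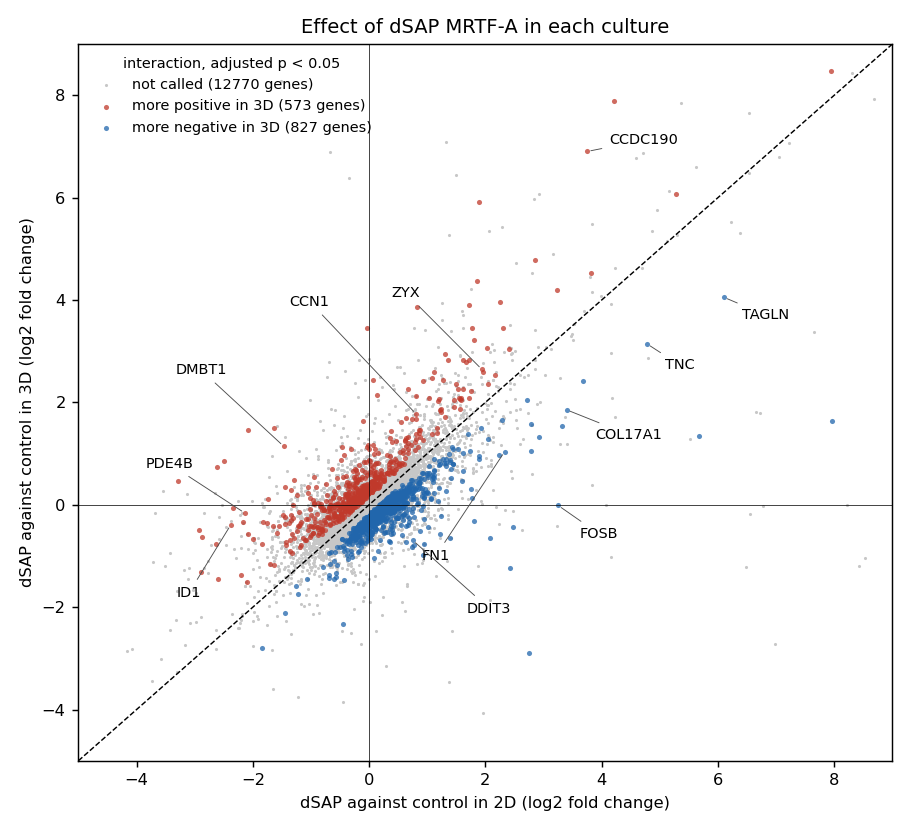
Effect of dSAP against control in 3D (vertical axis) and in 2D (horizontal axis), log2 fold change, for the 14170 genes tested. Red points are the 573 genes with a more positive effect in 3D, blue points the 827 with a more negative effect in 3D, grey points the 12770 not called. The dashed line marks equal effects, and the called genes lie to both sides of it, most of them close to it. The axes run from -5 to 9, with 41 genes outside them.

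For a gene whose effect differed, either line could have moved with culture. Both did for most: among the 1400 genes, 689 (49.2%) had called shifts of the same direction but unequal size in the 2 lines, and 121 (8.64%) had shifts in opposite directions. The dSAP line alone was called for 293 (20.9%) and the control line alone for 297 (21.2%). The larger of the 2 shifts belonged to the dSAP line for 630 genes (45.0%) and to the control line for 770 (55.0%). Of the 573 more positive genes, 211 had the larger shift in the dSAP line and 362 in the control line. Of the 827 more negative genes, 419 had it in the dSAP line and 408 in the control line. Over all genes tested, 8731 (61.6%) moved between cultures in dSAP cells and 8618 (60.8%) in control cells, 4176 (29.5%) higher and 4555 (32.1%) lower in 3D with dSAP and 4285 (30.2%) higher and 4333 (30.6%) lower in control cells. On log2(TPM + 1) these splits became 4496 to 2632 with dSAP and 4353 to 2700 in control cells. On log2(TPM + 0.1) the median 3D shift of all genes was 0.11 with dSAP and 0.10 in control cells, so directions of small shifts depend on the scaling. The shifts of the 2 lines had a Pearson correlation of 0.664 over 14170 genes. How often both lines moved, or which moved more, was not computed over all genes tested. The shares given for the 1400 genes are therefore not read as particular to them.

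Sorted by culture, 340 of the 1400 genes (24.3%) had an effect called in 3D but not in 2D, and 443 (31.6%) an effect called in 2D but not in 3D. In 485 (34.6%) the effect had the same direction in both, larger in 3D for 233 and in 2D for 252. The effect turned round in 129 (9.21%). Of these, 48 were higher in dSAP cells in 3D and lower in 2D, and 81 the reverse. No effect passed the threshold in either culture for 3. All 1400 passed the test of the difference itself. The class of a gene was not tested and follows from which of its effects were called in each culture.

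**Figure D2:**
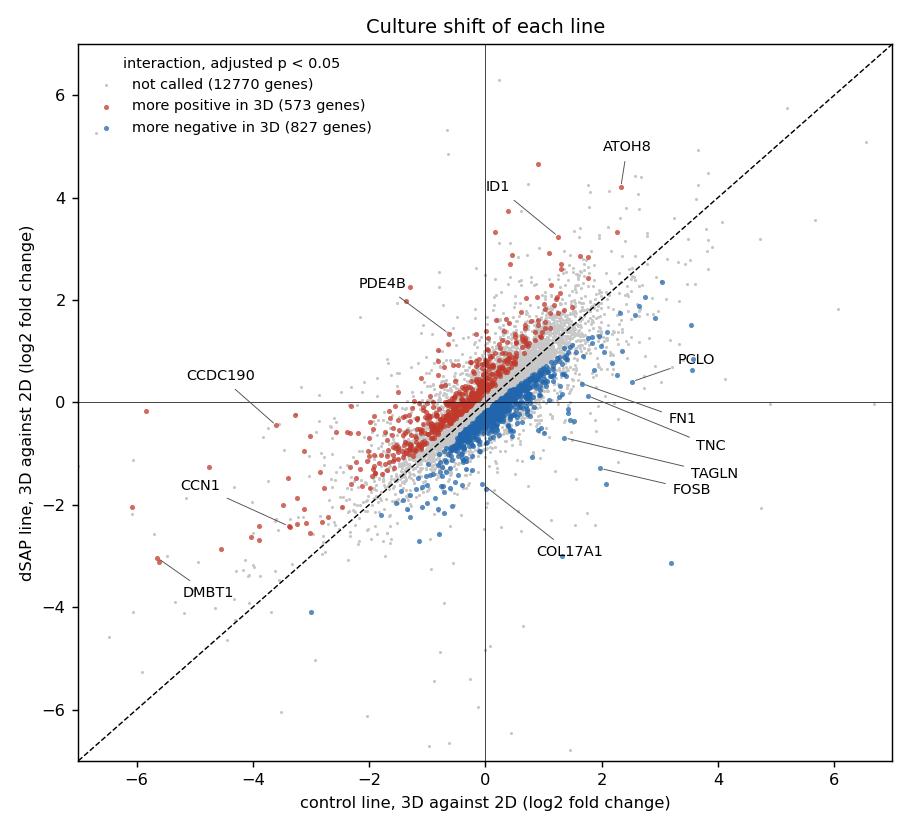
Shift between 3D and 2D in dSAP cells (vertical axis) and in control cells (horizontal axis), log2 fold change, for the genes of the effect plot, with the same colours. Points on the dashed line moved equally in both lines. The axes run from -7 to 7, with 39 genes outside them. Called genes lie along the line, where both lines moved unequally, and along the axes, where a shift was called in one line.

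Cytoskeletal targets of MRTF and SRF were mostly higher in dSAP cells in both cultures, and for 13 of 42 tested members the effect was more positive in 3D. dSAP cells were higher for 33 members in 3D and 33 in 2D, and lower for 3 in each. The median effect was 1.15 log2 in 3D and 1.12 in 2D. The culture dependence was positive for 13 members and negative for 5, with a median of 0.19, against 4.04 and 5.84% called and a median of -0.01 over all genes. Fitted with all 24 libraries, 7 members were called more positive and 1 more negative. Without replicate 1 of dSRF in 3D, that fit called 18 and 5.

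ZYX, which encodes the focal adhesion protein zyxin, had 489, 501 and 480.0 CPM in 3D dSAP cells, 74.7, 78.1 and 82.1 CPM in 3D control cells, 591, 592 and 576 CPM in 2D dSAP cells and 152, 156 and 151 CPM in 2D control cells. dSAP cells were above control cells in both cultures with no overlap, and the lowest group was 3D control. On matrigel ZYX fell by 0.26 log2 in dSAP cells and by 0.97 in control cells, so that the effect was 2.65 in 3D and 1.94 in 2D, a difference of 0.71 ± 0.05 (SE; adjusted p = 7.09e-07). PDLIM5, a PDZ and LIM protein of actin filaments, had 317, 302 and 304 CPM in 3D dSAP cells, 76.6, 76.6 and 72.7 CPM in 3D control cells, 372, 398 and 386 CPM in 2D dSAP cells and 161, 164 and 186 CPM in 2D control cells. It followed the order of ZYX, and its effect was larger in 3D by 0.86 ± 0.07 (SE; adjusted p = 1.44e-06). FLNC, the actin cross-linker filamin C, had 1414, 1413 and 1336 CPM in 3D dSAP cells, 543, 583 and 574 CPM in 3D control cells, 1455, 1420.2 and 1386 CPM in 2D dSAP cells and 788, 796 and 846 CPM in 2D control cells. Its dSAP groups overlapped between cultures (-0.03 log2, adjusted p = 0.518), and the difference of 0.48 ± 0.06 (SE; adjusted p = 8.68e-05) came with a control line that fell by 0.52 log2 on matrigel. VCL, encoding vinculin, had 872, 829 and 866 CPM in 3D dSAP cells, 378, 387 and 374 CPM in 3D control cells, 1035, 1114 and 1079 CPM in 2D dSAP cells and 644, 646 and 666 CPM in 2D control cells. Both lines had less VCL in 3D, control cells more so, and the effect was larger in 3D by 0.45 ± 0.06 (SE; adjusted p = 6.77e-05).

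CNN2 (calponin 2, an actin-binding protein) averaged 759 ± 17.1 CPM in 3D dSAP cells, 181 ± 11.2 CPM in 3D control cells, 1153 ± 19.1 CPM in 2D dSAP cells and 388 ± 6.56 CPM in 2D control cells (SD, n = 3 each). Its effect was 2.07 in 3D and 1.57 in 2D, a difference of 0.50 ± 0.06 (SE; adjusted p = 6.13e-05), which was lost when all 24 libraries were fitted together (adjusted p = 0.225). Its promoter is shown because it holds the DNA element that SRF binds, the CArG box, on which MRTF-A acts. The stretch lies at chr19:1026498-1026547 on the plus strand (GRCh38.p14, RefSeq), with the box in capitals.
CNN2: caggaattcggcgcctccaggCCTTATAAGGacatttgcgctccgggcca
Of 27305 RefSeq promoter windows, from 250 bases before to 50 after the start, 351 (1.29%) held a CArG box on either strand. The box was in 9 of the 38 SRF-list members with a window and in 3 of the 17 with a called difference (CNN2, ACTG1 and FLNA).

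TAGLN, encoding the smooth muscle actin-binding protein transgelin (chr11:117199321-117204782), went the other way. It had 196, 213 and 189.9 CPM in 3D dSAP cells, 8.11, 13.9 and 13.9 CPM in 3D control cells, 314, 332 and 320.4 CPM in 2D dSAP cells and 4.85, 5.43 and 3.85 CPM in 2D control cells. It was far above control in both dSAP groups. On matrigel the dSAP line had less TAGLN (-0.69 log2) and the control line more (1.36), so the effect was 4.05 in 3D and 6.10 in 2D, a difference of -2.05 ± 0.24 (SE; adjusted p = 0.000761). In the fit of all 24 libraries its adjusted p was 0.0608. The other members with a more negative effect in 3D, named after their values were seen, were CALD1, CSRP1, TAGLN2 and FLNA, with differences between -0.35 and -0.22. CSRP1 and CALD1 fell on matrigel in both lines, more in dSAP cells.

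For several well-known SRF genes with large effects of dSAP the culture dependence was not called, and for those at or near 0 in control cells it could not be assessed. SRF itself had 283, 293 and 276 CPM in 3D dSAP cells, 84.6, 80.95 and 81.6 CPM in 3D control cells, 349.7, 363 and 360.3 CPM in 2D dSAP cells and 114, 114 and 123 CPM in 2D control cells, a difference of 0.18 ± 0.06 (SE; adjusted p = 0.0561). SRF lay close to the threshold and was called with RLE scaling, with DESeq2, in the fit of 23 libraries and without replicate 2 of 2D dSAP or of 2D control, with an adjusted p from 0.0272 to 0.146 as each library was left out. MYL9, a regulatory light chain of smooth muscle myosin, had 1977, 2021 and 2188 CPM in 3D dSAP cells, 113, 131 and 121 CPM in 3D control cells, 2252, 2554 and 2272 CPM in 2D dSAP cells and 151, 149.5 and 146 CPM in 2D control cells, with 0.09 ± 0.08 (SE; adjusted p = 0.542). For ACTA2, smooth muscle actin, the values were 197, 209 and 206 CPM in 3D dSAP cells, 3.32, 2.99 and 2.46 CPM in 3D control cells, 97.2, 139 and 130.3 CPM in 2D dSAP cells and 3.32, 2.95 and 3.96 CPM in 2D control cells. Control cells of both cultures overlapped at low levels, and the difference of 0.98 ± 0.33 (SE; adjusted p = 0.0984) has a wide error. ACTA2 was called with DESeq2, on log2(TPM + 1), with the replicate number as a block and without replicate 1 or replicate 2 of 2D dSAP, and its adjusted p ran from 0.00316 to 0.249 as each library was left out. Another smooth muscle actin, ACTG2, had 699.9, 699 and 666 CPM in 3D dSAP cells, 0, 0 and 0 CPM in 3D control cells, 501, 627 and 557 CPM in 2D dSAP cells and 0.09904, 0 and 0.05498 CPM in 2D control cells. With 0 counts in 3D control cells, the 3D effect was at least 12194-fold, taking 3 counts over the group as the floor. The SE of its culture dependence was 2.12 log2, too wide to read the missing call. The myosin light chain gene MYL7 was at 0 in both control groups, and dSAP cells were at least 2287-fold higher in 3D and at least 2295-fold higher in 2D. The homeobox gene ALX1, also at 0 in both, was at least 122-fold higher in 3D and at least 145-fold higher in 2D. With no counts in control cells the culture dependence of MYL7 and ALX1 cannot be tested. The coding sequences of the actin genes are nearly identical, so reads may be divided between them with error. MRTFB, the paralogue of MRTFA, differed by -0.00 ± 0.07 (SE; adjusted p = 0.997) between cultures.

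**Figure D3:**
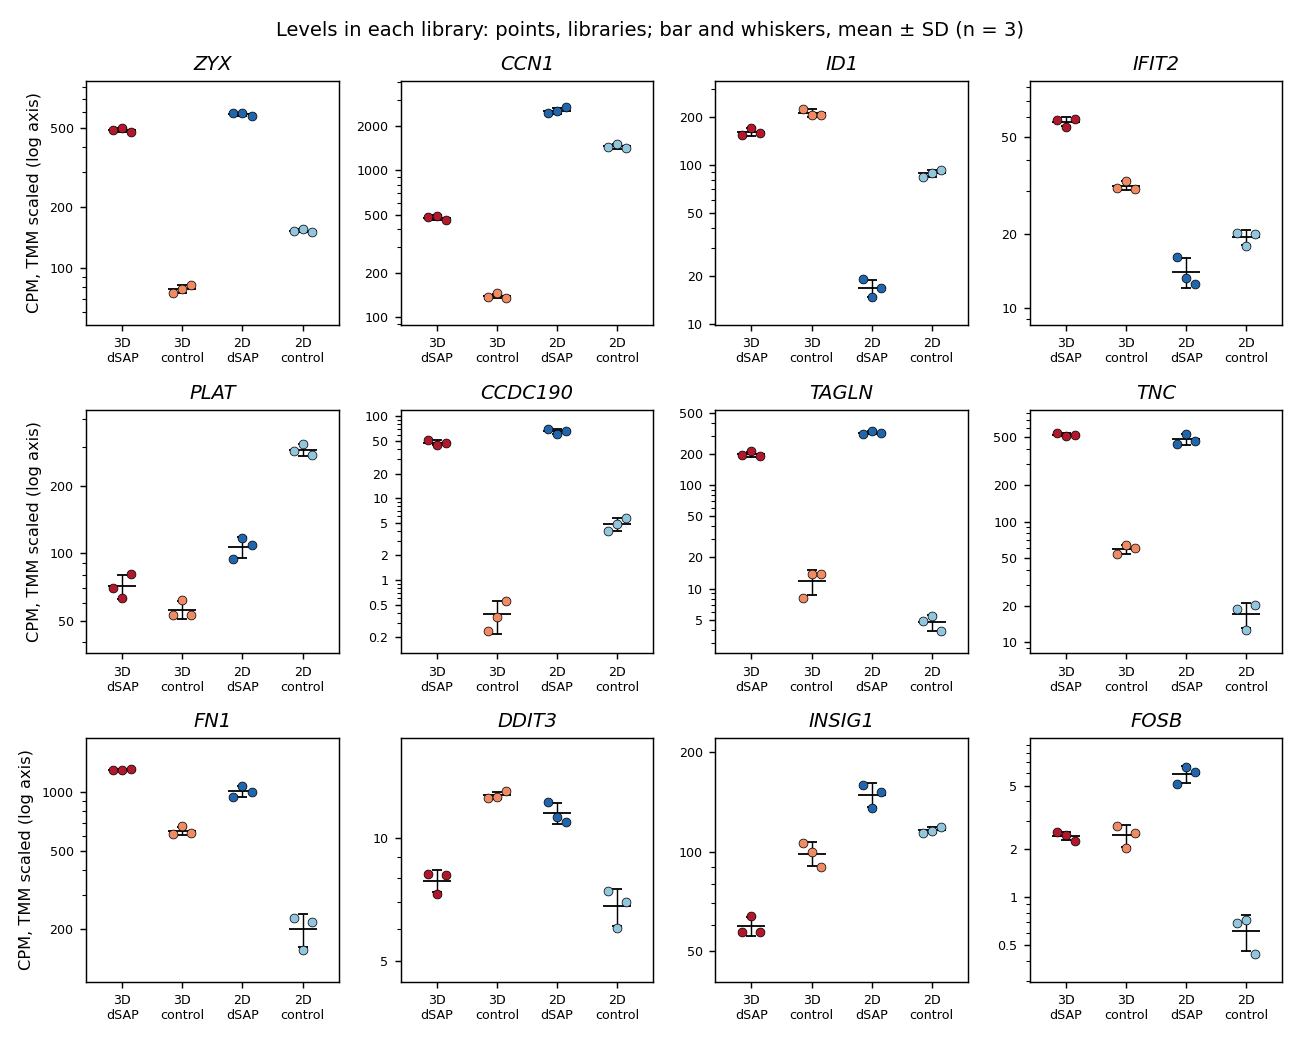
Levels of 12 genes in each library (points) with the mean and SD of each group (bars), in TMM-scaled CPM on a log axis, with 3D dSAP, 3D control, 2D dSAP and 2D control cells from left to right. ZYX and CCN1 are lowest in 3D control cells, ID1 is lowest in 2D dSAP cells, PLAT is highest in 2D control cells, and TNC and FN1 are lowest in 2D control cells.

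Targets of YAP and TEAD, the transcription factors regulated by the Hippo pathway and by cell shape, fell on matrigel in both lines, and a few fell less in dSAP cells. Of 25 tested members, 22 fell in dSAP cells and 20 in control cells, with medians of -0.87 and -0.92 log2. The culture dependence was positive for 6 and negative for 2. The matricellular protein gene CCN1 had 484, 491 and 457 CPM in 3D dSAP cells, 138, 146 and 136 CPM in 3D control cells, 2447, 2521 and 2686 CPM in 2D dSAP cells and 1436, 1511 and 1423 CPM in 2D control cells. 2D dSAP cells were highest and 3D control cells lowest, with no overlap among the 4 groups. CCN1 fell by 2.42 log2 in dSAP cells and by 3.38 in control cells, and its effect was larger in 3D by 0.96 ± 0.07 (SE; adjusted p = 1.68e-07). CCN2, a related gene, had 53.6, 50.96 and 47.9 CPM in 3D dSAP cells, 9.83, 10.9 and 11.6 CPM in 3D control cells, 241, 259 and 267 CPM in 2D dSAP cells and 72.7, 78.5 and 77.6 CPM in 2D control cells, with a difference of 0.48 ± 0.09 (SE; adjusted p = 0.0027). ANKRD1, which encodes an ankyrin repeat protein of muscle, had 31.6, 40.2 and 34.2 CPM in 3D dSAP cells, 14.98, 15.7 and 16.2 CPM in 3D control cells, 239, 217 and 229.7 CPM in 2D dSAP cells and 210.0, 262 and 223 CPM in 2D control cells. In 2D the 2 lines overlapped (effect -0.02, adjusted p = 0.89), while in 3D dSAP cells were 1.17 log2 above control. The tissue factor gene F3 went the other way, with effects of 0.82 in 3D and 1.29 in 2D and a difference of -0.48 ± 0.08 (SE; adjusted p = 0.00196). In the fit of all 24 libraries no member was called, with adjusted p = 0.112 for CCN1, 0.793 for CCN2, 0.0993 for ANKRD1 and 0.915 for F3. Without replicate 1 of dSRF in 3D, that fit called 6 members more positive and 2 more negative.

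Matrix genes held some of the largest differences, in both directions: 5 of 41 tested members were more positive and 5 more negative in 3D, and 2 and 3 in the fit of all 24 libraries. TNC, encoding tenascin C, had 541, 509 and 520.2 CPM in 3D dSAP cells, 53.7, 63.7 and 60.5 CPM in 3D control cells, 437, 532 and 469 CPM in 2D dSAP cells and 18.8, 12.7 and 20.2 CPM in 2D control cells. The dSAP groups overlapped (0.13 log2, adjusted p = 0.336) and 2D control cells were lowest. The control line gained 1.77 log2 on matrigel, which left an effect of 3.14 in 3D against 4.78 in 2D, a difference of -1.64 ± 0.18 (SE; adjusted p = 0.000699). FN1, encoding fibronectin, had 1299, 1300.5 and 1309.5 CPM in 3D dSAP cells, 615, 669 and 621 CPM in 3D control cells, 950.4, 1082 and 999 CPM in 2D dSAP cells and 228, 156 and 218 CPM in 2D control cells. On matrigel the dSAP line rose by 0.37 log2 (adjusted p = 0.0197) and the control line by 1.66, and the difference of effects was -1.29 ± 0.17 (SE; adjusted p = 0.00149). In COL17A1, a transmembrane collagen of hemidesmosomes, the dSAP line moved instead. It had 57.02, 54.5 and 50.4 CPM in 3D dSAP cells, 13.8, 14.5 and 16.4 CPM in 3D control cells, 169, 160.3 and 159.9 CPM in 2D dSAP cells and 16.8, 14.3 and 15.1 CPM in 2D control cells. dSAP cells were at -1.59 log2 in 3D relative to 2D, control cells overlapped between cultures (-0.05, adjusted p = 0.61), and the difference was -1.54 ± 0.10 (SE; adjusted p = 1.36e-07). COL4A1, a collagen IV chain of basement membranes, had 283, 275 and 285 CPM in 3D dSAP cells, 97.5, 105 and 104 CPM in 3D control cells, 217, 240.3 and 231 CPM in 2D dSAP cells and 124, 127 and 125 CPM in 2D control cells. Its lines moved in opposite directions, dSAP by 0.29 and control by -0.29, and the effect was larger in 3D by 0.59 ± 0.06 (SE; adjusted p = 1.29e-05). The calls for these 4 genes held under each alternative run for single genes.

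Proteases and their inhibitors were divided in the same way, with 5 of 30 members more positive and 6 more negative, and 2 each in the fit of all 24 libraries. PLAT, the gene of tissue plasminogen activator, had 69.6, 63.1 and 80.7 CPM in 3D dSAP cells, 53.1, 61.98 and 52.8 CPM in 3D control cells, 93.7, 116 and 109 CPM in 2D dSAP cells and 287, 309 and 275 CPM in 2D control cells. 2D control cells stood above every other group. On matrigel PLAT fell by 0.58 log2 in dSAP cells and by 2.37 in control cells. dSAP cells were higher than control in 3D (0.34) and lower in 2D (-1.45), a difference of 1.79 ± 0.15 (SE; adjusted p = 8.42e-05). ADAMTS1, a secreted metalloprotease, had 28.1, 28.1 and 28.2 CPM in 3D dSAP cells, 22.98, 28.5 and 26.1 CPM in 3D control cells, 78.2, 72.1 and 75.02 CPM in 2D dSAP cells and 37.04, 31.6 and 38.4 CPM in 2D control cells. Its lines overlapped in 3D and stood apart in 2D, a difference of -0.95 ± 0.11 (SE; adjusted p = 3.68e-05) that was lost in the fit of all 24 libraries (adjusted p = 0.741). SERPINE2, a protease inhibitor, averaged 7.17 CPM in 3D dSAP cells, 3.44 CPM in 3D control cells, 4.91 CPM in 2D dSAP cells and 0.711 CPM in 2D control cells, with -1.72 ± 0.33 (SE; adjusted p = 0.00278). Its adjusted p on log2(TPM + 1) was 0.0806.

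Genes of the amino acid stress response had a more negative effect of dSAP in 3D than in 2D. ATF4 is a transcription factor whose translation rises under stress and which switches on serine synthesis, amino acid import and tRNA charging. Of 27 tested ATF4 targets and serine synthesis genes, 15 were more negative in 3D and 0 more positive, with a median of -0.48 log2 (all genes -0.01). In 3D, 8 members were higher and 10 lower in dSAP cells, with a median effect of -0.04. In 2D, 18 were higher and 1 lower, with a median of 0.46. Amino acid transporters had 4 of 14 members more negative and tRNA synthetases 7 of 18, with 0 more positive in either, and 2 and 3 were more negative in the fit of all 24 libraries. The 15 ATF4-list calls became 9 both on log2(TPM + 1) and in the fit of all 24 libraries, in the same direction.

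DDIT3, the gene of the stress-induced factor CHOP, had 8.19, 7.301 and 8.12 CPM in 3D dSAP cells, 12.6, 12.6 and 13.01 CPM in 3D control cells, 12.2, 11.27 and 10.98 CPM in 2D dSAP cells and 7.43, 6.02 and 6.98 CPM in 2D control cells. dSAP cells were below control in 3D and above it in 2D, without overlap in either. On matrigel the dSAP line was at -0.55 log2 relative to 2D and the control line at 0.90, a difference of -1.44 ± 0.14 (SE; adjusted p = 8.88e-06). PSAT1, an enzyme of serine synthesis, had 58.1, 62.3 and 62.1 CPM in 3D dSAP cells, 53.1, 57.3 and 56.6 CPM in 3D control cells, 66.2, 62.2 and 65.7 CPM in 2D dSAP cells and 33.3, 25.7 and 33.8 CPM in 2D control cells. 2D control cells stood below the other groups. dSAP cells did not differ detectably between cultures (-0.09 log2, adjusted p = 0.308), and the difference of effects was -0.93 ± 0.11 (SE; adjusted p = 6.13e-05). TRIB3, a pseudokinase that ATF4 induces, had 15.7, 14.3 and 16.1 CPM in 3D dSAP cells, 16.9, 19.98 and 18.4 CPM in 3D control cells, 31.5, 32.5 and 33.7 CPM in 2D dSAP cells and 21.9, 25.1 and 22.5 CPM in 2D control cells. Of the 4 groups 3D dSAP was lowest and 2D dSAP highest, a difference of -0.75 ± 0.11 (SE; adjusted p = 0.000454). CEBPG, a partner of ATF4, and CTH, the cystathionine lyase, had differences of -0.69 and -0.87 log2. The transporter gene SLC38A1, for neutral amino acids, had 251, 257 and 244 CPM in 3D dSAP cells, 295, 294 and 293 CPM in 3D control cells, 354, 349 and 359.9 CPM in 2D dSAP cells and 255, 259 and 260.4 CPM in 2D control cells. The lines moved oppositely, dSAP by -0.50 and control by 0.19, giving -0.69 ± 0.05 (SE; adjusted p = 1.68e-07). Among synthetases, GARS1 (glycine) differed by -0.32 and AARS1 (alanine) by -0.39 log2, both lost in the fit of all 24 libraries (adjusted p = 0.219 for GARS1 and 0.265 for AARS1).

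Chosen after their values were seen, ATF4 itself and 2 of its best-known targets are added here. ATF4 averaged 84.1 CPM in 3D dSAP cells, 84.9 CPM in 3D control cells, 163 CPM in 2D dSAP cells and 119.7 CPM in 2D control cells, a difference of -0.46 ± 0.09 (SE; adjusted p = 0.00292). ASNS, asparagine synthetase, averaged 28.02 CPM in 3D dSAP cells, 24.5 CPM in 3D control cells, 41.8 CPM in 2D dSAP cells and 27.6 CPM in 2D control cells, with -0.40 ± 0.10 (SE; adjusted p = 0.0143). CHAC1, a glutathione-degrading enzyme, averaged 2.07 CPM in 3D dSAP cells, 1.31 CPM in 3D control cells, 9.86 CPM in 2D dSAP cells and 3.23 CPM in 2D control cells, with -0.95 ± 0.25 (SE; adjusted p = 0.0211). In each of these 3 genes 2D dSAP cells had the highest mean. The promoters of ASNS (chr7:97872449-97872498 on the minus strand) and CHAC1 (chr15:40953241-40953300 on the plus strand), both GRCh38.p14 from RefSeq, are shown with the element that ATF4 dimers bind in capitals, searched as TGATGNAA on both strands.
ASNS: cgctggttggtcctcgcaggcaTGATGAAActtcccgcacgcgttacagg
CHAC1: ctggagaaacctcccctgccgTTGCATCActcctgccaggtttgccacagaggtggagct
This element was in 1003 of 27305 promoters (3.67%), in 3 of the 21 list members with a window and in 3 of the 12 with a called difference (ASNS, CHAC1 and ATF3).

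Chaperones of the endoplasmic reticulum and other genes of the unfolded protein response moved similarly: 7 of 25 were more negative in 3D and 0 more positive, and 4 were on log2(TPM + 1). The median effect was -0.06 log2 in 3D and 0.15 in 2D. HSPA5, the main chaperone of this compartment (BiP), had 759.7, 709 and 829 CPM in 3D dSAP cells, 806, 848 and 726 CPM in 3D control cells, 1126, 1419.8 and 1309 CPM in 2D dSAP cells and 888, 814 and 879 CPM in 2D control cells. The lines overlapped in 3D, while 2D dSAP cells stood above the rest. dSAP cells were at -0.75 log2 in 3D relative to 2D and control cells at -0.12 (adjusted p = 0.271), a difference of -0.63 ± 0.12 (SE; adjusted p = 0.00949). HERPUD1, which helps degrade misfolded proteins, had 34.2, 33.2 and 35.3 CPM in 3D dSAP cells, 40.5, 40.3 and 38.9 CPM in 3D control cells, 56.5, 63.3 and 57.3 CPM in 2D dSAP cells and 41.2, 41.2 and 37.1 CPM in 2D control cells. 2D dSAP cells were again highest, and 3D dSAP cells were lowest. The dSAP shift was -0.79 and the control shift 0.00, and the effects differed by -0.79 ± 0.08 (SE; adjusted p = 1.77e-05). On log2(TPM + 1) without a filter its adjusted p was 0.0689. DNAJB9 and SDF2L1, cofactors of HSPA5, differed by -0.61 and -0.95. The HSPA5 promoter (chr9:125241364-125241433 on the minus strand, GRCh38.p14, RefSeq) is shown with its endoplasmic reticulum stress element, CCAAT and CCACG 9 bases apart, in capitals.
HSPA5: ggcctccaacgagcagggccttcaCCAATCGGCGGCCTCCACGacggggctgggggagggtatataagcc
Of 27305 promoters, 22 (0.0806%) held this element on either strand, with 6 of the 22 list members that had a window and 2 of the 7 called (HSPA5 and XBP1).

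Genes of cholesterol synthesis also had a more negative effect in 3D. They are switched on by SREBP factors when cell sterol runs low. Of 25 tested, 12 were more negative and 0 more positive, with a median of -0.34. In 3D, 9 were higher and 9 lower in dSAP cells (median effect -0.04), and in 2D 18 were higher and 2 lower (median 0.28). INSIG1, which holds SREBP back, had 56.97, 63.99 and 57.3 CPM in 3D dSAP cells, 106, 99.4 and 89.999 CPM in 3D control cells, 159, 136 and 151 CPM in 2D dSAP cells and 114, 115 and 119 CPM in 2D control cells. dSAP cells were below control in 3D and above it in 2D, without overlap. The dSAP line fell by 1.32 log2 on matrigel and the control line by 0.24, a difference of -1.09 ± 0.10 (SE; adjusted p = 1.04e-05). FDPS (farnesyl diphosphate synthase) and DHCR7 turned round, with effects of -0.27 and -0.31 in 3D against 0.23 and 0.28 in 2D. Chosen after its values were seen, HMGCS1, an early enzyme, differed by -0.40 ± 0.09 (SE; adjusted p = 0.0105). The sterol element TCACNCCAC was in 313 of 27305 promoters (1.15%), 1 of the 18 list members with a window (SREBF2) and 0 of the 10 called, so no window is printed. 6 members were called on log2(TPM + 1), and 9 in the fit of all 24 libraries. Fatty acid synthesis had 2 of 11 members more negative, and 0 both on log2(TPM + 1) and in the fit of all 24 libraries.

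Interferon response genes went the opposite way, with a more positive effect of dSAP in 3D. Of 45 tested, 13 were more positive in 3D and 2 more negative (among them CXCL11, -1.26, named after its values were seen). In 3D, 20 members were higher and 12 lower in dSAP cells (median 0.18). In 2D, 9 were higher and 21 lower (median -0.27). IFIT2, of a family of interferon-induced RNA-binding proteins, had 58.5, 54.7 and 59.1 CPM in 3D dSAP cells, 30.9, 33.03 and 30.5 CPM in 3D control cells, 16.2, 13.2 and 12.5 CPM in 2D dSAP cells and 20.3, 17.9 and 20.1 CPM in 2D control cells. dSAP cells were above control in 3D and below in 2D, with no overlap. The dSAP line gained 2.04 log2 on matrigel and the control line 0.70, a difference of 1.34 ± 0.12 (SE; adjusted p = 2.92e-06). IFIT3 had 100.8, 98.6 and 108 CPM in 3D dSAP cells, 77.3, 76.5 and 73.8 CPM in 3D control cells, 41.6, 35.3 and 35.3 CPM in 2D dSAP cells and 48.3, 45.1 and 48.7 CPM in 2D control cells. It showed the order of IFIT2, with 0.77 ± 0.09 (SE; adjusted p = 2.71e-05). IFIT1 had 45.2, 47.4 and 51.5 CPM in 3D dSAP cells, 33.1, 32.3 and 28.4 CPM in 3D control cells, 18.1, 21.2 and 17.98 CPM in 2D dSAP cells and 21.6, 21.2 and 22.98 CPM in 2D control cells, and its groups were close in 2D (effect -0.20, adjusted p = 0.0539). The difference was 0.82 ± 0.11 (SE; adjusted p = 0.000228). For DDX60, a helicase of antiviral sensing, the values were 59.2, 50.5 and 56.8 CPM in 3D dSAP cells, 38.3, 40.3 and 36.5 CPM in 3D control cells, 31.9, 30.3 and 32.2 CPM in 2D dSAP cells and 46.7, 39.5 and 42.3 CPM in 2D control cells. The dSAP line gained 0.82 log2 on matrigel, and control cells did not differ detectably between cultures (-0.16, adjusted p = 0.0525), a difference of 0.98 ± 0.10 (SE; adjusted p = 1.29e-05).

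The guanylate-binding protein gene GBP1 was higher in dSAP than in control cells in both cultures, with 164, 161 and 168 CPM in 3D dSAP cells, 27.3, 29.6 and 24.6 CPM in 3D control cells, 154, 151 and 156 CPM in 2D dSAP cells and 39.02, 38.6 and 40.6 CPM in 2D control cells. Its difference of 0.64 ± 0.07 (SE; adjusted p = 4.15e-05) was lost in the fit of all 24 libraries (adjusted p = 0.598). OASL, of the oligoadenylate synthetase family, averaged 20.1 CPM in 3D dSAP cells, 10.3 CPM in 3D control cells, 3.09 CPM in 2D dSAP cells and 4.14 CPM in 2D control cells, with 1.39 ± 0.21 (SE; adjusted p = 0.000531). 8 members were called more positive on log2(TPM + 1), and 9 in the fit of all 24 libraries. The promoters of IFIT3 (chr10:89327827-89327906 on the plus strand), IFIT1 (chr10:89392493-89392552 on the plus strand) and DDX60 (chr4:168318783-168318852 on the minus strand), GRCh38.p14 from RefSeq, are shown with the interferon-stimulated response element in capitals, searched as GAAA and GAAA with 2 bases between, on both strands.
IFIT3: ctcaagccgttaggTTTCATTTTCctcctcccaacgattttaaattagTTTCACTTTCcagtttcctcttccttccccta
IFIT1: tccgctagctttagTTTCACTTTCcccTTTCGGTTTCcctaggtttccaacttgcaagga
DDX60: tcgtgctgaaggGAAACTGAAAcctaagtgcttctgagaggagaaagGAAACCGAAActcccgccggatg
Each of these windows holds 2 matches. The element was in 996 of 27305 promoters (3.65%), in 23 of the 36 list members with a window and in 8 of the 12 with a called difference (DDX60, IFIT3, GBP1, IFIT1, GBP4, DDX60L, IFI27 and IFI44). IRF factors bind such elements.

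3 response genes of BMP ligands were lower in dSAP cells in both cultures, less so in 3D. ID1, an inhibitor of basic helix-loop-helix factors, had 153, 170.3 and 159 CPM in 3D dSAP cells, 224, 204 and 205 CPM in 3D control cells, 19.1, 14.9 and 16.8 CPM in 2D dSAP cells and 84.2, 88.4 and 93.1 CPM in 2D control cells. The groups did not overlap, and 2D dSAP cells were lowest. Both lines gained ID1 on matrigel, dSAP by 3.24 log2 and control by 1.25, and the effect was -0.39 in 3D and -2.38 in 2D, a difference of 1.99 ± 0.10 (SE; adjusted p = 4.22e-08). ID3, a relative, had 104, 113 and 108 CPM in 3D dSAP cells, 142, 148 and 145 CPM in 3D control cells, 18.1, 13.3 and 13.2 CPM in 2D dSAP cells and 44.8, 44.5 and 51.7 CPM in 2D control cells, with 1.23 ± 0.12 (SE; adjusted p = 4.47e-05). ATOH8, a helix-loop-helix factor, had 19.6, 23.4 and 19.97 CPM in 3D dSAP cells, 40.3, 30.6 and 36.1 CPM in 3D control cells, 1.38, 0.862 and 1.13 CPM in 2D dSAP cells and 5.496, 7.86 and 8.08 CPM in 2D control cells. It had the same order of groups, with 1.87 ± 0.26 (SE; adjusted p = 0.00058). The BMP and TGF-beta list as a whole had 3 of 20 members more positive (these 3) and 3 more negative. In the fit of all 24 libraries none was called more positive, with adjusted p = 0.0839 for ID1, 0.461 for ID3 and 0.192 for ATOH8. Without replicate 1 of dSRF in 3D, that fit called 4 members more positive and 3 more negative. ATOH8 kept its call on log2(TPM + 1), at 1.18 log2.

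Immediate early genes, which respond within minutes to growth factors and stress, had 6 of 29 members more negative and 2 more positive, with 1 each in the fit of all 24 libraries. FOSB, an AP-1 subunit, had 2.56, 2.43 and 2.26 CPM in 3D dSAP cells, 2.78, 2.03 and 2.51 CPM in 3D control cells, 5.13, 6.56 and 6.11 CPM in 2D dSAP cells and 0.693, 0.7201 and 0.4398 CPM in 2D control cells. The lines overlapped in 3D, and in 2D the dSAP cells were far above control. The lines moved in opposite directions, dSAP by -1.29 and control by 1.98 log2, and the effect was -0.01 in 3D and 3.25 in 2D. The difference of -3.27 ± 0.30 (SE; adjusted p = 4.68e-06) shrank to -1.69 on log2(TPM + 1), where the added 1 weighs on such low levels. NF-kB feedback genes and chemokines had 4 of 28 members more positive and 4 more negative, and none with all 24 libraries fitted together. The fit of 23 libraries, without replicate 1 of dSRF in 3D, called 4 and 4. TNFAIP3, the feedback inhibitor A20, had 59.5, 63.4 and 58.2 CPM in 3D dSAP cells, 65.97, 74.1 and 78.6 CPM in 3D control cells, 39.1, 39.8 and 37.7 CPM in 2D dSAP cells and 21.6, 20.5 and 18.2 CPM in 2D control cells. It was lower in dSAP cells in 3D and higher in 2D, a difference of -1.22 ± 0.10 (SE; adjusted p = 1.24e-06) that was lost in the fit of all 24 libraries (adjusted p = 0.189). IL6, encoding interleukin 6, differed by -0.72 ± 0.13 (SE; adjusted p = 0.00215) and was also lost there (adjusted p = 0.768).

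Of the remaining groups, nuclear-encoded respiratory chain subunits had 11 of 58 members more negative and 0 more positive, with differences from -0.59 to -0.19 log2. CYC1, cytochrome c1, was the member with the largest difference, -0.59 ± 0.08 (SE; adjusted p = 0.00011). Its adjusted p with all 24 libraries was 0.177, and no member was called. The fit of 23 libraries, without replicate 1 of dSRF in 3D, called 10 members more negative and 0 more positive. On log2(TPM + 1) the 11 respiratory chain calls became 3, and 2 without a filter. The mitochondrial share of counts given above was higher in 3D than in 2D in both lines, without overlap, and its part in these calls was not tested. NRF2 and oxidative stress genes had 6 of 25 more negative, among them FTL, the ferritin light chain, with 2162, 2249 and 2057 CPM in 3D dSAP cells, 4169, 4124 and 3651 CPM in 3D control cells, 1326, 1435 and 1345 CPM in 2D dSAP cells and 1910.4, 1687 and 1716 CPM in 2D control cells. FTL was lower in dSAP cells in both cultures, more so in 3D, by -0.51 ± 0.08 (SE; adjusted p = 0.000954). With all 24 libraries 1 member of this list was called. Hypoxia genes had 4 of 30 more negative, which became 1 on log2(TPM + 1) and 1 in the fit of all 24 libraries. Lysosome genes had 6 of 44 more negative and 2 more positive, and the 6 became 1 on log2(TPM + 1) and 2 with all 24 libraries. Replication-dependent histones had 9 of 30 more positive and 0 more negative. Of the 30, 28 were lower in dSAP than in control cells in 3D and 30 in 2D. Histone transcripts took 0.266 to 0.289% of counts in 3D dSAP cells and 0.390 to 0.429% in 3D control cells, against 0.164 to 0.178% in 2D dSAP cells and 0.286 to 0.304% in 2D control cells. Genes of the same histone family are very similar to each other, so single members are uncertain. Their transcripts lack poly(A) tails, and the labels name both polyA RNA and ribosomal RNA depletion. No histone gene was called in the fit of all 24 libraries. In the fit of 23 libraries, 9 histone genes were more positive and 0 more negative. Few or no members were called for mitosis (1 of 38 more positive, 2 more negative), DNA replication (0 and 2 of 43), cytosolic ribosomal proteins (0 and 1 of 75) and the mitochondrial genome (0 and 0 of 13).

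**Figure D4:**
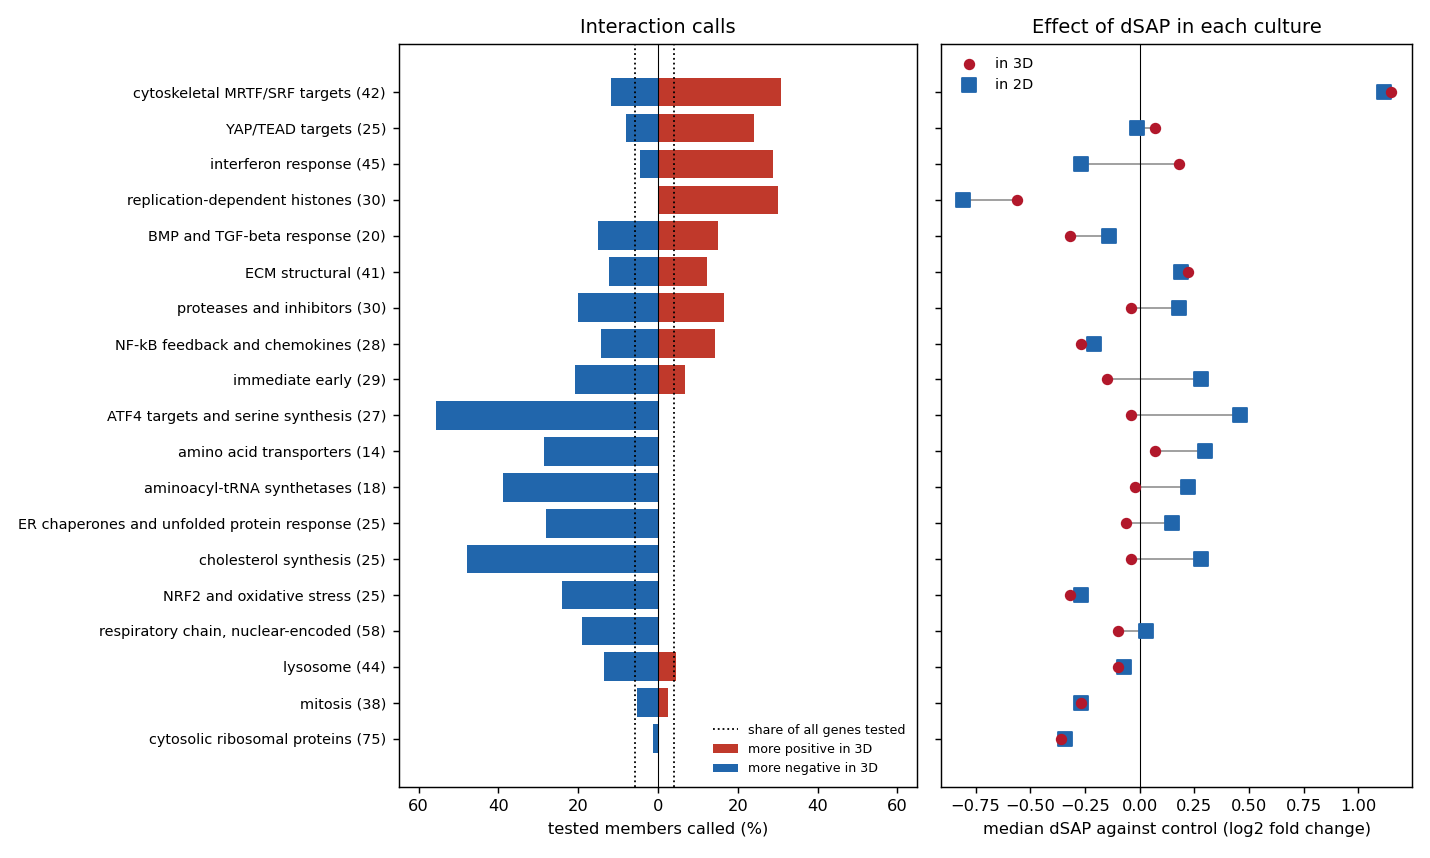
Left, share of the tested members of each gene list whose dSAP effect was called more positive (red) or more negative (blue) in 3D, in percent, with dotted lines at the shares over all genes, 4.04 and 5.84%. Right, median effect of dSAP against control in 3D (red circles) and in 2D (blue squares), log2 fold change. The lists of ATF4 targets and cholesterol synthesis have the highest shares of more negative members, and SRF targets, interferon genes and histones the highest shares of more positive ones among the larger lists.

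Some large differences lay in genes outside these lists. CCDC190, a little-known coiled-coil gene, had 51.9, 45.02 and 47.1 CPM in 3D dSAP cells, 0.237, 0.359 and 0.563 CPM in 3D control cells, 69.5, 60.5 and 66.6 CPM in 2D dSAP cells and 3.96, 4.91 and 5.77 CPM in 2D control cells. It was high in both dSAP groups and near 0 in 3D control cells. The difference of 3.15 ± 0.27 (SE; adjusted p = 3.00e-06) came with dSAP cells at -0.45 log2 and control cells at -3.6 log2 in 3D relative to 2D. PDE4B, a cyclic AMP phosphodiesterase, had 9.13, 7.96 and 8.86 CPM in 3D dSAP cells, 9.89, 9.69 and 9.43 CPM in 3D control cells, 3.25, 3.51 and 3.44 CPM in 2D dSAP cells and 15.8, 13.4 and 15.7 CPM in 2D control cells. The lines did not differ detectably in 3D (-0.16, adjusted p = 0.202), and dSAP cells were lower in 2D (-2.14), a difference of 1.98 ± 0.15 (SE; adjusted p = 4.57e-07). DMBT1, a scavenger receptor gene, had 1.58, 1.37 and 1.18 CPM in 3D dSAP cells, 0.651, 0.658 and 0.563 CPM in 3D control cells, 9.43, 13.1 and 11.6 CPM in 2D dSAP cells and 25.9, 41.6 and 27.3 CPM in 2D control cells. dSAP cells were higher in 3D and lower in 2D, at low 3D levels, with 2.62 ± 0.38 (SE; adjusted p = 0.000919). KISS1, the kisspeptin gene, had 3.601, 3.95 and 4.51 CPM in 3D dSAP cells, 0.118, 0.179 and 0.256 CPM in 3D control cells, 38.4, 30.7 and 34.8 CPM in 2D dSAP cells and 8.27, 10.1 and 10.3 CPM in 2D control cells, with 2.51 ± 0.31 (SE; adjusted p = 6.97e-05), lost in the fit of all 24 libraries (adjusted p = 0.302). The differences of CCDC190, DMBT1 and KISS1 were 2.07, 1.46 and 1.57 on log2(TPM + 1). In the other direction stood PCLO, a presynaptic scaffold gene, with 4.69, 5.43 and 4.34 CPM in 3D dSAP cells, 5.69, 6.103 and 6.25 CPM in 3D control cells, 4.14, 3.45 and 3.32 CPM in 2D dSAP cells and 0.941, 0.851 and 1.32 CPM in 2D control cells. Its lines did not differ detectably in 3D (-0.32, adjusted p = 0.125), while in 2D dSAP cells were higher, a difference of -2.12 ± 0.25 (SE; adjusted p = 6.06e-05), which was -1.24 on unfiltered log2(TPM + 1).

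Where a group was near 0, levels are given, with a lower bound in place of a fold where it had no counts. NPPB, the natriuretic peptide B gene, had 10.2, 11.2 and 10.2 CPM in 3D dSAP cells, 0, 0.1197 and 0 CPM in 3D control cells, 153, 167 and 168 CPM in 2D dSAP cells and 9.01, 8.38 and 8.96 CPM in 2D control cells. It was above control in dSAP cells of both cultures, highest in 2D dSAP cells, and almost absent from 3D control cells. LMOD1, the actin nucleator leiomodin 1, averaged 15.4 CPM in 3D dSAP cells, 0.0368 CPM in 3D control cells, 43.7 CPM in 2D dSAP cells and 0.128 CPM in 2D control cells. CNN1, calponin 1, averaged 0.137 CPM in 3D dSAP cells, 0.0341 CPM in 3D control cells, 9.56 CPM in 2D dSAP cells and 0.503 CPM in 2D control cells. The dSAP means of both genes were lower in 3D than in 2D, and that of CNN1 in 3D was near 0. MGAM, maltase-glucoamylase, averaged 20.9 CPM in 3D dSAP cells and was at 0 in 3D control cells, so dSAP cells were at least 370-fold higher in 3D. In 2D control cells it averaged 0.389 CPM. The 2D dSAP level of MGAM is not given, so its culture dependence cannot be read from these levels. Its called culture dependence was lost on log2(TPM + 1) (limma, adjusted p = 0.946) and in the fit of all 24 libraries (adjusted p = 0.222).

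Whether the culture dependence of dSAP differed from that of WT MRTF-A was tested by comparing dSAP with WT cells. The control libraries cancel from the difference of the 2 culture dependences. The culture dependence of WT against control is not given here, so a dependence shared by both forms cannot be read from this test. This test used the 6 dSAP and 6 WT libraries and called 2196 of 14091 genes (15.6%): 923 (6.55%) had a more positive culture dependence with dSAP and 1273 (9.03%) a more negative one. In the fit of all 24 libraries the split turned to 123 more positive and 84 more negative, and on log2(TPM + 1) it was 290 to 500. Of 27 ATF4 targets, 16 were more positive with dSAP and 1 more negative. tRNA synthetases had 10 of 18 more positive, ER chaperones 9 of 25 and lysosome genes 20 of 44, with 0 more negative in each. Cholesterol synthesis had 6 of 25 more positive and 1 more negative, with a median of -0.02. More positive means that the 3D shift was more positive in dSAP than in WT cells. SRF targets had 0 more positive and 14 of 42 more negative. For mitosis genes the counts were 0 and 36 of 38, and for histones 0 and 24 of 30. All these list counts come from the fit of the 6 dSAP and 6 WT libraries. The alternatives were not run for lists in this test. Since the fit of all 24 libraries called only 84 genes more negative in total, the list counts are uncertain.

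In these sentences WT levels are scaled within the dSAP and WT libraries, so they sit on a slightly different scale from the dSAP levels. DDIT3 averaged 7.87 CPM in 3D dSAP cells against 6.28 CPM in 3D WT cells, and 11.5 CPM in 2D dSAP cells against 15.6 CPM in 2D WT cells. The dSAP mean was above the WT mean in 3D and below it in 2D, and the difference was 0.78 ± 0.13 (SE; adjusted p = 0.00039). HSPA5 averaged 766 CPM in 3D dSAP cells against 677 CPM in 3D WT cells, and 1285 CPM in 2D dSAP cells against 1678 CPM in 2D WT cells, a difference of 0.58 ± 0.12 (SE; adjusted p = 0.00994). FTL averaged 2156 CPM in 3D dSAP cells against 1621 CPM in 3D WT cells, and 1368 CPM in 2D dSAP cells against 1652 CPM in 2D WT cells, a difference of 0.70 ± 0.05 (SE; adjusted p = 5.34e-08). For DDIT3 and HSPA5 the 3D mean was less far below the 2D mean in dSAP than in WT cells, and for FTL it was above the 2D mean in dSAP cells and close to it in WT cells. ID1 averaged 161 CPM in 3D dSAP cells against 97.5 CPM in 3D WT cells, and 16.9 CPM in 2D dSAP cells against 5.24 CPM in 2D WT cells. The dSAP mean was higher in both cultures, and the gain on matrigel was smaller in dSAP than in WT cells, by -0.97 ± 0.16 (SE; adjusted p = 0.00178). ZYX and TAGLN had differences of -0.19 ± 0.05 (SE; adjusted p = 0.00887) and -0.51 ± 0.05 (SE; adjusted p = 2.75e-06), with TAGLN at 199 CPM in 3D dSAP cells against 1138 CPM in 3D WT cells, and 322 CPM in 2D dSAP cells against 1279 CPM in 2D WT cells. TNC differed by 0.01 ± 0.07 (SE; adjusted p = 0.969). KIF20A, a mitotic kinesin, averaged 72.8 CPM in 3D dSAP cells against 108 CPM in 3D WT cells, and 64.3 CPM in 2D dSAP cells against 59.1 CPM in 2D WT cells, a difference of -0.67 ± 0.08 (SE; adjusted p = 1.01e-05).

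The largest differences from WT were mostly in genes of low level. VAV1, a guanine nucleotide exchange factor of blood cells, averaged 12.6 CPM in 3D dSAP cells against 0.442 CPM in 3D WT cells, and 12.3 CPM in 2D dSAP cells against 2.29 CPM in 2D WT cells. It was nearly equal in both dSAP groups and lower in 3D than in 2D in WT cells, a difference of 2.41 ± 0.26 (SE; adjusted p = 3.86e-06). Against control cells its culture dependence was 0.65 ± 0.19 (SE; adjusted p = 0.0429) and is uncertain. It was lost with DESeq2 (adjusted p = 0.0894), on log2(TPM + 1) (0.0558), with the replicate number as a block (0.0768), in the fit of all 24 libraries (0.267) and in 10 of 12 fits that left out 1 library (up to 0.112). ID2, another inhibitor of helix-loop-helix factors, averaged 3.82 CPM in 3D dSAP cells against 1.29 CPM in 3D WT cells, and 0.234 CPM in 2D dSAP cells against 0.417 CPM in 2D WT cells, with 2.37 ± 0.53 (SE; adjusted p = 0.0042). In the fit of all 24 libraries its adjusted p was 0.0904. ATOH8 averaged 20.99 CPM in 3D dSAP cells against 10.5 CPM in 3D WT cells, and 1.12 CPM in 2D dSAP cells against 0.161 CPM in 2D WT cells, with -1.72 ± 0.36 (SE; adjusted p = 0.0041). TJP3, TAGLN3 and PSG3 were called more positive with dSAP and HHIP, ALPP and VASH1 more negative, and each call was lost under some alternative. With all 24 libraries the adjusted p was 0.109 for TJP3, 0.051 for TAGLN3, 0.23 for HHIP, 0.365 for ALPP and 0.318 for VASH1. On log2(TPM + 1) it was 0.274 for TJP3, 0.632 for PSG3 and 0.888 for VASH1.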

How the data were processed

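RNA-seq of 24 libraries was deposited, and the 12 control and dSAP libraries, with the 6 WT libraries for 1 test, were used. Per the submitters' processing notes, reads were checked with FastQC and quantified with Salmon (version as written there, 11.3) on hg38, which gave the deposited estimated counts and TPM values. Per the labels' protocols, libraries were stranded total RNA with ribosomal RNA depletion, although the molecule field reads polyA. The sources used here do not give the annotation behind these values. Gene names and GRCh38 positions come from a table of names and GENCODE 29 and matched 29530 and 34620 of 37247 identifiers, and 842 of the genes tested have no symbol.

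Estimated counts were rounded, filtered with filterByExpr, scaled with TMM (factors 0.929 to 1.06) and fitted with edgeR's quasi-likelihood method (edgeR 4.0.16, limma 3.58.1, R 4.3.3) as 4 group means, which leaves 8 residual degrees of freedom. Calls required an adjusted p under 0.05, by Benjamini-Hochberg over the genes tested. Each SE is the absolute log2 fold change divided by the square root of the test's F statistic. It is approximate where a group is near 0 counts. Groups follow the titles of the labels. Tested on simulated counts for this interaction on 13939 genes, the method recovered 78 of 100 genes changed 2-fold and 93 of 100 changed 4-fold, with 13 false calls among 184. The simulation gave every other gene the same mean in all groups. Changes were made in 3D dSAP alone, in genes above a minimum mean count. Its rates therefore need not hold for the real libraries or for genes of low counts. Replicate pairs differed by more than sampling noise, with a chi-square of 3.27 to 7.75 per gene.

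Alternatives were RLE scaling, no filter, DESeq2 1.42.0, limma on log2 of the deposited TPM with 1 or 0.1 added (mean TPM of at least 1, or unfiltered), the replicate number as a block, fits on 24 and 23 libraries, groups from the genotype field, and leaving out each library. The members and the gene lists were chosen with earlier results of these data known. Named genes were the 15 most positive and 15 most negative called interactions with a mean of at least 1 CPM in some group, outside chromosome 6 from 28000000 to 34000000, 16 fixed genes, up to 6 called members of each list with the lowest p, 8 called genes with a group at or under 3 counts, and the 8 most extreme either way for the difference from WT. The text describes those that show each group, and says where a gene was added after its values were seen. Some genes are not reported here. Promoter windows are RefSeq sequences on GRCh38.p14. Figures were drawn with matplotlib 3.10.9 under Python 3.11.15.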

Additional observations from a re-analysis of the deposited data

Results flagged for a closer look

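The tests of differences between cultures and between constructs gave 1400 genes for the culture dependence of dSAP, 129 of them with effects called in opposite directions in 3D and in 2D, and 2196 genes for the difference from WT. Among the named genes, 30 had a called interaction together with effects called in opposite directions in 3D and in 2D. The interaction test shows that the effects differ, and the reversal follows from the 2 separate calls. The values below are the 3D effect minus the 2D effect in log2.

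Lower in dSAP cells in 3D and higher in 2D were GDF15 (-1.72), CXCR4 (-1.56), DDIT3 (-1.44), TNFAIP3 (-1.22), INSIG1 (-1.09), SLC6A9 (-1.04), SDF2L1 (-0.95), PPP1R15A (-0.84), HERPUD1 (-0.79), TRIB3 (-0.75), CEBPG (-0.69), SLC38A1 (-0.69), DHCR7 (-0.59), FDPS (-0.50), CDKN1A (-0.45), NEU1 (-0.41), AARS1 (-0.39), EBP (-0.39), IARS1 (-0.36) and FASN (-0.28). Higher in dSAP cells in 3D and lower in 2D were DMBT1 (2.62), PLAT (1.79), OASL (1.39), IFIT2 (1.34), CD14 (1.25), DDX60 (0.98), IFIT3 (0.77), ADAMTS15 (0.67), THBS1 (0.40) and EVPL (0.36). Not all of these calls were firm. With all 24 libraries fitted together the call was lost for GDF15 (adjusted p = 0.286), CXCR4 (0.272), TNFAIP3 (0.189), PPP1R15A (0.0512), CDKN1A (0.186), AARS1 (0.265), FASN (0.334), ADAMTS15 (0.37), THBS1 (0.874) and EVPL (0.423). On log2(TPM + 1) it was lost for NEU1 (0.0612), FASN (0.414) and EVPL (0.184), and on unfiltered log2(TPM + 1) also for SLC6A9, HERPUD1, CDKN1A, IARS1 and THBS1. The call of FASN was lost in 7 of 12 fits that left out 1 library, and that of EVPL without replicate 1 or replicate 2 of 3D control. CD14, a monocyte marker, was the one called immune marker, and its level came with no other immune marker beyond CD68 among the genes tested. Single libraries were not tested for outlying values within their groups of 3, and the range with each library left out is given with the dependence on processing.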

How the results depend on the processing

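The culture dependence was called for 1400 genes and for 1368 with RLE scaling, 1348 without a filter, 1293 with DESeq2 and 1738 in the fit of 23 libraries. It fell to 485 on log2(TPM + 1), 481 on log2(TPM + 0.1), 342 on unfiltered log2(TPM + 1) and 350 with all 24 libraries. The fit on unfiltered log2(TPM + 1) called 4145 genes for dSAP against control in 3D. The difference from WT, 2196 genes, was called for 790, 796 and 547 genes on log2(TPM + 1), log2(TPM + 0.1) and unfiltered log2(TPM + 1), and for 207 with all 24 libraries. With groups from the genotype field, which the MRTFA levels go against, 0 genes were called for the culture dependence, 0 for the effect in 3D, 0 in 2D and 0 for the difference from WT, while 99 moved between cultures in control cells and 74 in dSAP cells. This alternative was not run for single genes and lists.

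Leaving out 1 library at a time gave 974 to 1517 genes for the culture dependence, 5539 to 6480 for the effect in 3D, 5942 to 6946 in 2D, 8027 to 8806 for the shift of the dSAP line, 7949 to 8664 for that of the control line and 1625 to 2479 for the difference from WT. The replicate numbers gave no clear sign of pairing: 18 correlations of same-numbered deviations ran from -0.0963 to 0.154, and 1 of 12 libraries correlated best with its own number. With 3 libraries per group this check cannot exclude pairing. With the replicate block 1131 genes were called.

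Of 163 named genes with a called interaction, 41 were called under every alternative but the genotype field. Interactions reversed in sign for LMOD1 on log2(TPM + 1) with and without a filter (adjusted p = 0.0249 and 0.0384), MGAM (0.946 and 0.959) and FLT1 without a filter (0.708), genes with a control group near 0, and the cause was not tested. For named genes, 1873 of 2220 values with 1 library left out and 1194 of 1597 under other alternatives kept direction and side of the threshold. For lists, 704 of 840 values with 1 library left out and 502 of 630 under other alternatives stayed within their limits. These values were counts of called members and median interactions. The limit was 1.5 times for a count, and for a median a move smaller than the median SE of the members. Genes under about 1 CPM are limited by depth.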
